A study of Arabidopsis thaliana with 60 samples.

Results

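HCT, C3H1, CSE, CCOAOMT1 and CCOAOMT7 encode enzymes that act between p-coumaroyl-CoA and feruloyl-CoA in the lignin pathway of Arabidopsis thaliana. Their rows were followed through the stem transcriptomes of 5 groups of plants. The 5 genes were chosen by pathway step and locus identifier (AT5G48930, AT2G40890, AT1G52760, AT4G34050 and AT4G26220), with no rule on their values, and are 5 of the 37967 genes in the tables. All 5 had counts in every one of the 15 samples and passed the filter on low counts in every comparison.

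The study asked how expression of GPT2, a glucose 6-phosphate translocator of the plastid envelope, relates to lignin synthesis. HCT-RNAi plants, in which HCT is lowered by silencing, and plants labelled gpt2-1, a mutant line of GPT2, were compared with a first set of wild type Col-0 plants (Col-0 set 1). Plants labelled 35S GPT2, an overexpression line, were compared with a second set of Col-0 plants (Col-0 set 2) run as their own control trial. Each group had 3 samples of stem, from plants grown for 9 to 10 weeks in 0.5x Noren medium. The labels name no promoter for the silencing construct, do not say how many transgenic lines a group holds, and do not say whether a sample pools several plants. They speak of biological replicates, and p-values measure the spread between these samples only.

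Lignin is made from monolignols, which differ in how many hydroxyl and methoxyl groups their ring carries. HCT joins p-coumaroyl-CoA to shikimate, C3H1 (the cytochrome P450 CYP98A3) adds a hydroxyl group to the ester, and the caffeoyl group is released either by HCT in reverse or by CSE, a caffeoyl shikimate esterase. CCoA O-methyltransferases then methylate caffeoyl-CoA on the way to coniferyl alcohol. In stems this pathway is most active in xylem vessels and interfascicular fibres while they thicken their secondary walls.

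Many lignin genes carry AC elements, short sequences bound by MYB transcription factors, so the bases just upstream of each gene are shown, with such elements in capitals. Each run is the 250 bases before the annotated start of the gene in RefSeq's TAIR10.1 assembly, read 5′ to 3′ on the strand of the gene. The run of HCT covers chr5:19838236-19838485 on the minus strand. The run of C3H1 covers chr2:17060653-17060902 on the minus strand. CSE, CCOAOMT1 and CCOAOMT7 are on the plus strand, with runs at chr1:19650922-19651171, chr4:16310159-16310408 and chr4:13283276-13283525.
HCT: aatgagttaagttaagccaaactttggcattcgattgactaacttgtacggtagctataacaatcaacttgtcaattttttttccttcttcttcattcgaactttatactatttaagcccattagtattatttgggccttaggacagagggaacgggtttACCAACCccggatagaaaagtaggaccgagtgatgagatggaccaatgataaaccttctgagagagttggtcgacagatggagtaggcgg
C3H1: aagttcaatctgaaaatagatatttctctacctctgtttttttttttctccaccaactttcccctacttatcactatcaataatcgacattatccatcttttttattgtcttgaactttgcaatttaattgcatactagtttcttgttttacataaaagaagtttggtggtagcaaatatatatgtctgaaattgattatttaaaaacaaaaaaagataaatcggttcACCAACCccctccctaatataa
CSE: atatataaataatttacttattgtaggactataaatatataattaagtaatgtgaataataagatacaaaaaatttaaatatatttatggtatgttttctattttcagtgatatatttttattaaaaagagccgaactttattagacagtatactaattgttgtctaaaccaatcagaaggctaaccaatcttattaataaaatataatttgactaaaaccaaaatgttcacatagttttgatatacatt
CCOAOMT1: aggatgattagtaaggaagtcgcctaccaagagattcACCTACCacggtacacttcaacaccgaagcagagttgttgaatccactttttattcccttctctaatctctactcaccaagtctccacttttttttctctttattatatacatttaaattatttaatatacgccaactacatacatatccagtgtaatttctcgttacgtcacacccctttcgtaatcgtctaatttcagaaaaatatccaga
CCOAOMT7: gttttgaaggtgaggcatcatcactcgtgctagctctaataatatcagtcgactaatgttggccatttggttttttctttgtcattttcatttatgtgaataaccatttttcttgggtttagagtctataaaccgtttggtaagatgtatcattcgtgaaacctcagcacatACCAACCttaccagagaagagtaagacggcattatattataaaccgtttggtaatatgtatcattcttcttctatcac

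The AC-I element was searched as ACCTACC, the element called AC-II was searched as ACCAACC, and for the element called AC-III the search used ACCTAAC, each on both strands, in windows of 300 bases from 250 before to 50 after the start. HCT held ACCAACC from base -90 to -84 and, beyond the printed run, ACCTACC on the opposite strand from base 12 to 18 after the start. C3H1 held ACCAACC from -22 to -16, CCOAOMT7 held it from -78 to -72, and CCOAOMT1 held ACCTACC from -213 to -207. CSE held none of these letters in its window, which says nothing of any factor. No match overlapped another. Over the 37897 gene windows of the nuclear chromosomes, 3.39% held ACCAACC, 1.34% ACCTACC, 2.85% ACCTAAC, 7.32% any of them and 0.528% at least 2 matches.

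Levels are given as CPM, a gene's count divided by its library's total, which edgeR's TMM factor (trimmed mean of M-values) corrects for composition, and the test was edgeR's quasi-likelihood F test with adjustment over all genes tested. Total counts per sample were 23041771 to 26129812 in HCT-RNAi, 21352999 to 22618598 in the libraries labelled gpt2-1 and 16591700 to 24150608 in Col-0 set 1. The second trial was shallower and less even, with 3827816 to 12536593 counts in 35S GPT2 and 5258309 to 31713084 in Col-0 set 2. Gene labels and counts were out of step in 5 tables (replicates 2 and 3 of the overexpression line and every table of Col-0 set 2), which were therefore read in the row order of the table of 35S GPT2 replicate 1. Their Spearman correlations with Col-0 set 1 replicate 1 were 0.884 to 0.925 in that order, against 0.101 to 0.112 as labelled. Genes of secondary wall polysaccharides, which mark lignifying stem tissue, summed to between 3558 and 7747 CPM in the 15 samples, and none of the 12 was at 0. GPT2 went against one label. It averaged 127 ± 3.93 CPM (SD, n = 3) in the libraries labelled gpt2-1 and 8.09 ± 1.86 CPM in HCT-RNAi, against 1.32 ± 0.148 CPM in Col-0 set 1, and no direction drawn from these libraries is taken as an effect of losing GPT2.

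**Figure D1:**
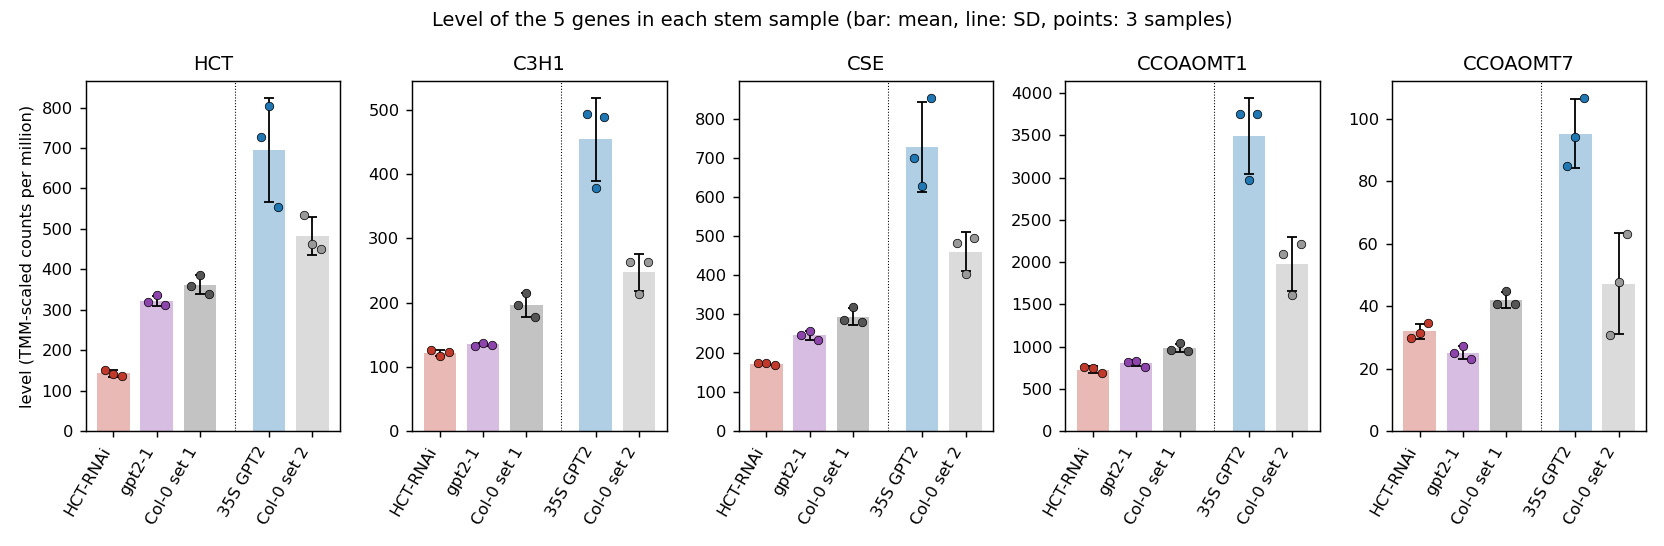
Level, in TMM-scaled CPM, of each of the 5 genes in every sample, with bars for group means, lines for the SD and points for the 3 samples of each group. The dotted line separates the trials, which were scaled separately. In each panel the HCT-RNAi and gpt2-1 points lie below those of Col-0 set 1, and the 35S GPT2 points lie above those of Col-0 set 2.

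HCT, the hydroxycinnamoyl transferase that opens and can close the shikimate ester route, checks the silencing label. The gene lies at chr5:19836299-19838235 on the minus strand and has 2 exons with 1800 bases. It stood at 152, 141 and 137 CPM in the HCT-RNAi samples and at 319, 337 and 313 CPM in the samples labelled gpt2-1, against 359.6, 387 and 339.9 CPM in Col-0 set 1. The silenced samples were far below the wild type, while the highest gpt2-1 sample came close to the lowest wild type one without overlapping it. HCT fell to 0.395 of the wild type level in HCT-RNAi (log2 fold change -1.34, SE 0.05, edgeR adjusted p = 4.36e-19). Counts per gene do not separate reads of the endogenous transcript from any read of the silencing construct. In the libraries labelled gpt2-1 the log2 fold change was -0.17 (SE 0.05, edgeR adjusted p = 0.00428), and -0.39 on library totals without TMM, where the median of all genes was -0.23.

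In the second trial HCT stood at 728, 805 and 553 CPM in 35S GPT2, against 535, 462 and 449 CPM in Col-0 set 2. Every 35S GPT2 sample was above every Col-0 set 2 sample, by a narrow margin between the lowest 35S GPT2 sample and the highest Col-0 one. At a log2 fold change of 0.53 (SE 0.18), HCT was not called (edgeR adjusted p = 0.211). Samples with the same number deviated together in this trial, and with the sample number as a replicate block the log2 fold change was 0.51 and passed (edgeR adjusted p = 0.0334). The labels do not say that same-numbered samples were paired, and the block was chosen from these same counts. Calls with the block, here and below, are therefore given beside the unblocked ones and not in their place.

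C3H1, the P450 that 3-hydroxylates the shikimate ester, lies at chr2:17058053-17060652 on the minus strand, with 3 exons and 1885 exon bases. It stood at 126, 117 and 124 CPM in HCT-RNAi and at 133, 138 and 135 CPM in the libraries labelled gpt2-1, against 196, 216 and 178 CPM in Col-0 set 1. Both lines were below every wild type sample, and the spread within the gpt2-1 group was the smallest, with an SD of 2.38 CPM. C3H1 fell by 0.69 on the log2 scale in HCT-RNAi (SE 0.05, edgeR adjusted p = 4.08e-12) and by 0.54 in the libraries labelled gpt2-1 (SE 0.05, edgeR adjusted p = 5.27e-10). In the second trial it stood at 493, 379 and 489 CPM in 35S GPT2, against 264, 213 and 264 CPM in Col-0 set 2. The groups did not overlap, and replicate 2 was the lowest sample of each. C3H1 rose by 0.88 on the log2 scale in 35S GPT2 (SE 0.17, edgeR adjusted p = 0.0240), and with the replicate block the value was 0.87 (edgeR adjusted p = 0.00101). Without the block this call was lost when 35S GPT2 replicate 1 or 3 or Col-0 set 2 replicate 2 or 3 was left out, with log2 fold changes of 0.80, 0.81, 0.78 and 0.93.

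C3H1 is the only one of the 5 genes with exon bases under exons of the opposite strand, where Col-0 set 1 and the libraries labelled gpt2-1 are undercounted relative to HCT-RNAi and the second trial. The shared part is 94 bases, or 4.987% of its exon length. AT2G40880, the gene next to its 3′ end, shares 70 bases, and its mean levels were 73.1 ± 3.70 CPM in HCT-RNAi and 85.4 ± 5.46 CPM in the libraries labelled gpt2-1, against 86.2 ± 5.18 CPM in Col-0 set 1 (SD, n = 3 each). The other gene, AT2G09205, held at most 17 counts in any library. HCT, CSE and the methyltransferases have no such base, and none of the 31-base words in the exons of the 5 genes occurred elsewhere in the genome.

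CSE, the esterase that frees caffeate from the shikimate ester, lies at chr1:19651172-19652825 on the plus strand, with 3 exons and 1454 exon bases (RefSeq names it LysoPL2). It stood at 175, 174 and 169 CPM in HCT-RNAi and at 246, 256 and 235 CPM in the libraries labelled gpt2-1, against 285, 318 and 279 CPM in Col-0 set 1. The HCT-RNAi samples had an SD of 3.20 CPM and lay below both other groups, and the gpt2-1 samples lay below the wild type without overlap. CSE fell by 0.77 on the log2 scale in HCT-RNAi (SE 0.05, edgeR adjusted p = 5.89e-14) and by 0.26 in the libraries labelled gpt2-1 (SE 0.05, edgeR adjusted p = 3.04e-05). In the second trial it stood at 701, 629.7 and 855 CPM in 35S GPT2, against 482, 404 and 495 CPM in Col-0 set 2. All 3 of the 35S GPT2 samples were higher than the Col-0 ones. Its log2 fold change of 0.66 (SE 0.17) did not pass without the block (edgeR adjusted p = 0.0868) and passed with it (0.66, edgeR adjusted p = 0.00487).

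CCOAOMT1, the main caffeoyl-CoA O-methyltransferase of lignin synthesis, lies at chr4:16310409-16312308 on the plus strand. Its 3 annotated transcripts have 3 or 4 exons, with 1550 exon bases in all. It stood at 760.4, 747 and 685 CPM in HCT-RNAi and at 825, 834 and 766 CPM in the libraries labelled gpt2-1, against 957, 1046 and 954 CPM in Col-0 set 1. Both lines were below the wild type and close to each other. CCOAOMT1 fell by 0.43 on the log2 scale in HCT-RNAi (SE 0.05, edgeR adjusted p = 1.16e-08) and by 0.29 in the libraries labelled gpt2-1 (SE 0.05, edgeR adjusted p = 1.03e-05). It stood at 3752, 2975 and 3756 CPM in 35S GPT2, against 2092, 1618 and 2219 CPM in Col-0 set 2. As for C3H1, replicate 2 was the lowest sample of both groups, and the groups did not overlap. CCOAOMT1 rose by 0.82 on the log2 scale in 35S GPT2 (SE 0.19, edgeR adjusted p = 0.0474), just inside the threshold, and with the replicate block the value was 0.83 (edgeR adjusted p = 0.000972). Without the block the call was lost when any one library other than 35S GPT2 replicate 2 was left out, with log2 fold changes of 0.69 to 0.91.

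CCOAOMT7, a second and much less abundant member of the CCoA methyltransferase family, lies at chr4:13283526-13285323 on the plus strand, with 5 exons and 1098 exon bases. In a global alignment its longest coding sequence was identical to that of CCOAOMT1 at 61.5% of 696 aligned bases. It stood at 30.0, 31.5 and 34.7 CPM in HCT-RNAi and at 25.1, 27.3 and 23.1 CPM in the libraries labelled gpt2-1, against 40.6, 45.0 and 40.7 CPM in Col-0 set 1. It was the only one of the 5 genes whose gpt2-1 samples were all below the HCT-RNAi ones. CCOAOMT7 fell by 0.40 on the log2 scale in HCT-RNAi (SE 0.06, edgeR adjusted p = 5.13e-06) and by 0.74 in the libraries labelled gpt2-1 (SE 0.07, edgeR adjusted p = 1.76e-10). In the second trial it stood at 84.8, 94.3 and 107 CPM in 35S GPT2, against 30.9, 47.7 and 63.1 CPM in Col-0 set 2. The wild type samples spread most here, with an SD of 16.1 CPM around a mean of 47.2 CPM, and the lowest, replicate 1, rested on 154 counts. The log2 fold change of 0.99 (SE 0.23) did not pass without the block (edgeR adjusted p = 0.0522) and passed with it (1.04, edgeR adjusted p = 0.00338). Without the block it also passed at 0.77 without Col-0 set 2 replicate 1 (edgeR adjusted p = 0.0454) and at 1.26 without replicate 3 (edgeR adjusted p = 0.0286). Leaving out Col-0 set 2 replicate 2 or any 1 of the 35S GPT2 samples gave no call (edgeR adjusted p = 0.134 to 0.221).

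Counted together, 5 of the 5 genes passed as lower in HCT-RNAi, where 55.7% of the 20053 genes tested passed in either direction, 26.5% as lower and 29.2% as higher. Likewise 5 of 5 passed as lower in the libraries labelled gpt2-1, where 53.2% of genes passed, 25.8% as lower and 27.4% as higher. The levels of all 5 were below those of Col-0 set 1 without overlap in both lines, as were 29.1% of genes in HCT-RNAi and 27.9% in the libraries labelled gpt2-1. The median log2 fold change of the 5 was -0.69 in HCT-RNAi and -0.29 in the libraries labelled gpt2-1, against medians over all genes of 0.0011 and -0.0059. These comparisons share the Col-0 set 1 samples. In 35S GPT2, 2 of the 5 passed as higher, where 2.52% of 18364 genes passed, 1.40% as higher and 1.11% as lower. With the replicate block, 5 of 5 passed as higher. Over all 18364 genes, 617 then passed as higher and 1103 in either direction, against 258 and 462 without the block. All 5 were above Col-0 set 2 without overlap, as were 11.8% of genes. The median log2 fold change of the 5 was 0.82, against 0.017 over all genes. With the gene labels as deposited, HCT, C3H1 and CSE did not pass the filter on low counts in this trial, and CCOAOMT1 and CCOAOMT7 had log2 fold changes of 7.52 and 4.05 (edgeR adjusted p = 0.9997 for both).

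**Figure D2:**
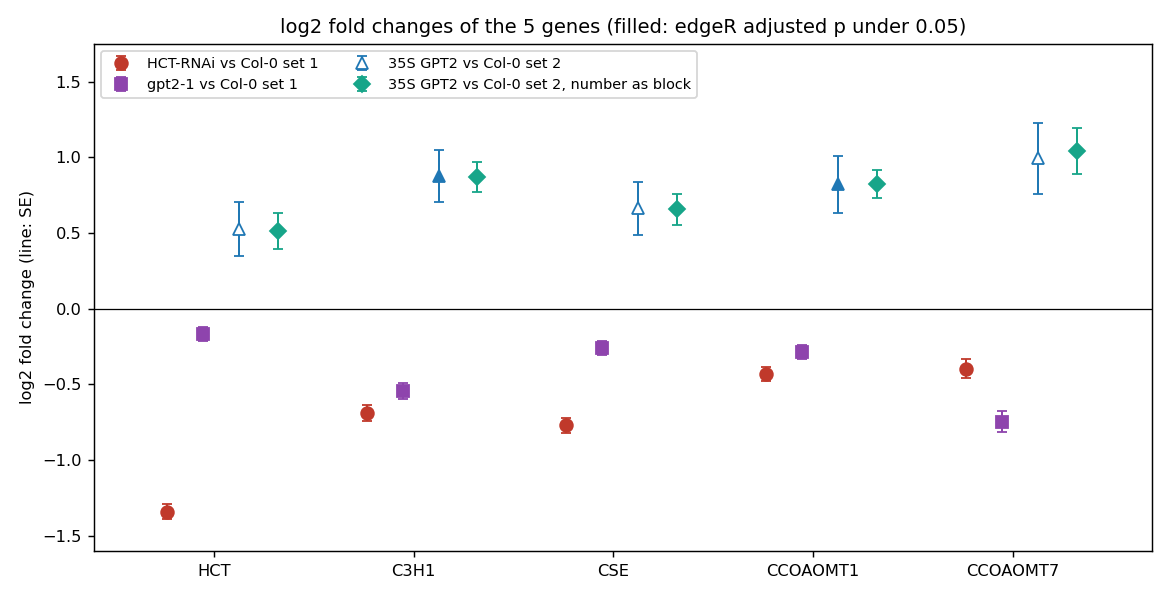
log2 fold changes with their SE for the 5 genes in HCT-RNAi and gpt2-1 against Col-0 set 1 and in 35S GPT2 against Col-0 set 2, without and with the sample number as a block. Filled markers had an edgeR adjusted p under 0.05. HCT shows the lowest value in HCT-RNAi (-1.34), CCOAOMT7 the lowest in gpt2-1 (-0.74), and the 35S GPT2 values run from 0.51 to 1.04.

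The profiles of the 2 lines of the first trial differed among the 5 genes. Between HCT-RNAi and the libraries labelled gpt2-1, HCT (log2 fold change -1.17, SE 0.05, edgeR adjusted p = 4.02e-18) and CSE (-0.51, SE 0.05, edgeR adjusted p = 1.95e-10) were lower in HCT-RNAi. CCOAOMT7 was higher there (0.35, SE 0.07, edgeR adjusted p = 5.52e-05). C3H1 (-0.15, edgeR adjusted p = 0.0146) and CCOAOMT1 (-0.15, edgeR adjusted p = 0.00871) were also called lower, but on library totals without TMM they were at 0.067 and 0.069 and did not pass. Thus 4 of 5 were called lower and 1 higher, where 68.2% of genes passed, 32.8% as lower and 35.3% as higher. The libraries labelled gpt2-1 had TMM factors of 0.901 to 0.906, against 1.04 to 1.07 in Col-0 set 1. Without TMM the median over all genes moved to -0.23 against Col-0 set 1, and 24.7% of called genes were higher, against 51.5% with TMM. The log2 fold changes were then -0.39 for HCT, -0.77 for C3H1, -0.49 for CSE, -0.51 for CCOAOMT1 and -0.97 for CCOAOMT7, each below that median.

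The effects of 35S GPT2 and of the libraries labelled gpt2-1, each against its own Col-0 set, were set against each other in 1 fit of all 15 samples, in which GPT2 itself was higher than wild type in both lines. The difference, 35S GPT2 minus gpt2-1, was positive for 5 of the 5 genes, where 22.3% of 20645 genes passed, 9.32% as higher and 13.0% as lower. It was 0.64 (SE 0.16, edgeR adjusted p = 0.00825) for HCT and 1.37 (SE 0.16, edgeR adjusted p = 1.18e-05) for C3H1. For CSE it was 0.87 (SE 0.16, edgeR adjusted p = 0.000693), for CCOAOMT1 1.06 (SE 0.17, edgeR adjusted p = 0.000270) and for CCOAOMT7 1.66 (SE 0.24, edgeR adjusted p = 8.76e-05). This fit shares 1 estimate of each gene's spread between the trials, though replicates spread more in the second trial. For HCT, C3H1, CSE and CCOAOMT1 its SEs were below those of 35S GPT2 against Col-0 set 2 alone (0.18, 0.17, 0.17 and 0.19). The adjusted p-values of the difference may therefore be too small. Each line was in 1 trial only, so the line and the trial cannot be told apart in the level of either group. The difference from its own wild type removes a shift shared by a trial, but not a response that differs between trials. For GPT2 the same difference was 0.57 and did not pass (SE 0.56, edgeR adjusted p = 0.519).

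Per kilobase of exon, CCOAOMT1 was the most abundant of the 5 in every group and CCOAOMT7 the least. In HCT-RNAi the mean levels were 472 ± 25.8 CPM per kb for CCOAOMT1, 119 ± 2.20 for CSE, 79.4 ± 4.30 for HCT, 64.8 ± 2.50 for C3H1 and 29.2 ± 2.19 for CCOAOMT7 (SD, n = 3 each). The ratio of C3H1 to HCT per kb was 0.817 ± 0.0413 there, against 0.518 ± 0.0155 in Col-0 set 1. In Col-0 set 1, HCT and CSE were level, at 201 ± 13.2 and 202 ± 14.3 CPM per kb, and did not differ beyond their spread, while C3H1 stood at 104 ± 9.88. In the libraries labelled gpt2-1 HCT was at 179 ± 6.93 and CSE at 169 ± 7.45 CPM per kb, with SDs that touch, though the ratio of CSE to HCT within samples was 0.942 ± 0.0129. In 35S GPT2 CSE stood at 501 ± 79.2 and HCT at 386 ± 71.6 CPM per kb, against 317 ± 34.0 and 268 ± 25.6 in Col-0 set 2, and in both groups the within-sample ratio of CSE to HCT spread widely, at 1.36 ± 0.493 and 1.19 ± 0.155.

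Within samples, HCT lost ground to the other 4 genes in HCT-RNAi. The log2 ratio of HCT to their geometric mean, in CPM, averaged -0.06 ± 0.07 in HCT-RNAi and 1.00 ± 0.02 in the libraries labelled gpt2-1, against 0.71 ± 0.02 in Col-0 set 1. None of these groups overlapped. In the second trial the ratio was 0.34, 0.66 and -0.21 in the 35S GPT2 samples, against 0.83, 0.70 and 0.29 in Col-0 set 2, and the groups overlapped. Replicate 3 had the lowest ratio in both groups. CCOAOMT1 exceeded CCOAOMT7 per kilobase 16.3 ± 2.04-fold in HCT-RNAi and 22.8 ± 1.03-fold in the libraries labelled gpt2-1, against 16.6 ± 0.11-fold in Col-0 set 1. In 35S GPT2 it did so 26.2 ± 4.63-fold, against 32.3 ± 13.6-fold in Col-0 set 2, where replicate 1 reached 48.0-fold.

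**Figure D3:**
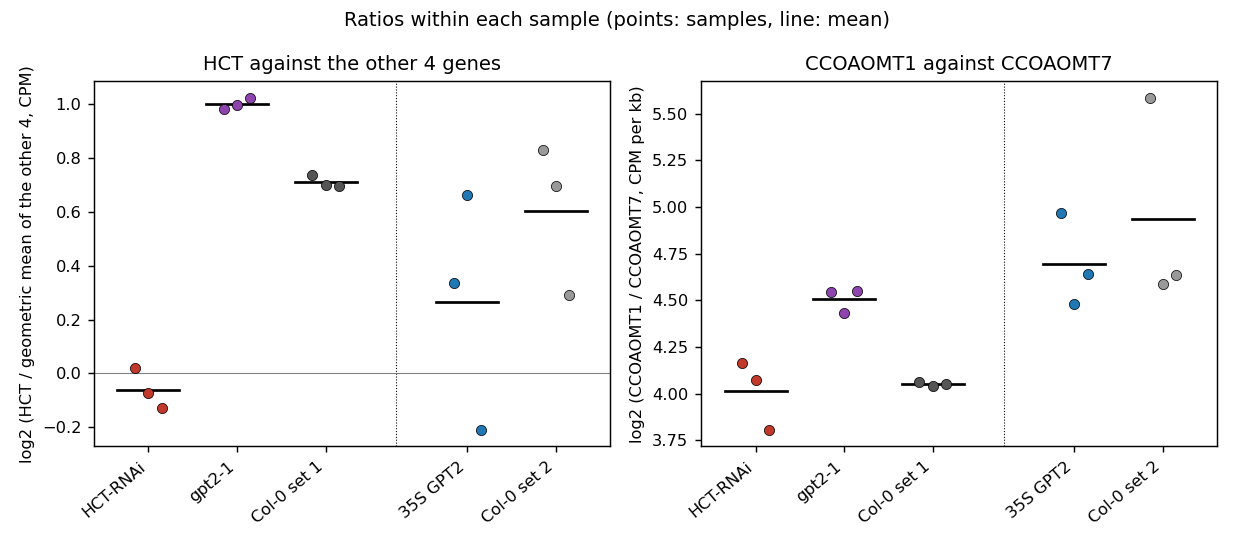
Ratios within each sample, on a log2 scale, with points for samples and lines for group means: HCT over the geometric mean of the other 4 genes in CPM (left) and CCOAOMT1 over CCOAOMT7 in CPM per kb (right). On the left the HCT-RNAi samples lie at 0.02 and below and the gpt2-1 samples at 0.98 and above, with Col-0 set 1 between them. The groups right of the dotted line overlap in both panels.

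The likeness of other genes to each of the 5 was taken as the root mean square difference, over the 15 samples, of log2 levels relative to the wild type of the same trial. The smaller it is, the closer the profiles. PAL4, a phenylalanine ammonia-lyase, was closest to HCT (0.20), and C4H, the cinnamate hydroxylase, closest to CSE (0.11). BXL2 (0.13) was closest to C3H1, CTL2 (0.09) and NEK4 (0.11) were closest to CCOAOMT1, and AT1G63300 (0.20) and AT1G05170 (0.20) to CCOAOMT7. MTHFR2, a methylenetetrahydrofolate reductase, was among the 3 closest to C3H1 (0.16), CSE (0.14) and CCOAOMT1 (0.13). The median over 10461 or 10462 genes was 0.53 to 0.71. Among the 5 themselves, C3H1, CSE and CCOAOMT1 were 0.17 to 0.18 apart, CCOAOMT7 was 0.30 to 0.39 from these, and HCT was 0.33 to 0.62 from the other 4. The samples share their wild type sets, so this is a description only.

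The other monolignol enzymes, 15 of which were tested, did not follow one pattern across lines. Over all genes tested, 26.5% were called lower and 29.2% higher in HCT-RNAi. The shares were 25.8% lower and 27.4% higher in the libraries labelled gpt2-1, and 1.11% lower and 1.40% higher in 35S GPT2. In HCT-RNAi 11 fell and 3 were called higher, with a median log2 fold change of -0.42. PAL4 (-1.08, SE 0.06, edgeR adjusted p = 9.87e-16) and C4H (-0.84, SE 0.04, edgeR adjusted p = 1.82e-15), entry enzymes of the phenylpropanoid pathway, were among the lowest. CCR1, a cinnamoyl-CoA reductase, was called higher (1.06), but 77.2% of its exon bases lie under opposite-strand exons, and among the 11 enzymes with no such base 9 fell and 1 rose. In the libraries labelled gpt2-1, 4 rose and 4 fell with TMM, near the shares of all genes, with a median of -0.02. Without TMM 2 rose and 10 fell, where 13657 of all 20053 genes were called and 24.7% of these were higher. With TMM, CCR2 (2.13, SE 0.05, 6.29% of its bases under such exons) and PAL2 (0.53) rose in these libraries and 4CL1, a coumarate ligase, fell (-0.34). In 35S GPT2, PAL1 (0.69), PAL2 (0.74) and C4H (0.80) rose and no other passed, with a median of 0.52, while with the replicate block 9 rose and 1 fell. With the block 617 of all 18364 genes were called higher and 1103 in either direction.

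Genes that serve the reactions of the 5 enzymes were also listed. Beside their counts, 26.5% of all genes were called lower and 29.2% higher in HCT-RNAi. For the libraries labelled gpt2-1 these shares were 25.8% and 27.4%, and for 35S GPT2 1.11% and 1.40%. Of 4 genes for P450 reductases and membrane scaffolds of monolignol P450s, 3 fell and 1 rose in HCT-RNAi, between -0.33 and 0.21. ATR2, a P450 reductase that feeds electrons to enzymes such as C3H1, rose in the libraries labelled gpt2-1 (1.09, SE 0.04, edgeR adjusted p = 3.41e-19) and was the only one of the 4 to pass there with TMM, while 3 of the 4 were called lower without it, as were most of the genes called then. None of the 4 passed in 35S GPT2 by edgeR, with or without the block.
Of 10 genes that make or recycle the methyl donor of CCOAOMT1 and CCOAOMT7, 7 fell and 2 rose in the libraries labelled gpt2-1, with SAHH2 (-0.42) and ADK2 (-0.46) among them. In 35S GPT2 SAHH2 (0.95), ADK2 (0.85) and MAT3 (0.73) rose, and with the block 7 of the 10 did. In HCT-RNAi 5 fell, SAM1 (-0.43) and SAM-2 (-0.32) among them, and 2 were called higher, of which MTO3 (1.42) has 29.7% of its bases under opposite-strand exons. Of 10 shikimate pathway genes, whose product HCT uses as acceptor, 9 fell in HCT-RNAi, led by DHS1 (-0.65), DHS3 (-0.44) and MEE32 (-0.35). In the libraries labelled gpt2-1, 5 of the 10 fell with TMM (median -0.09). Without TMM 10 fell, with a median of -0.32, where the median of all genes was -0.23 and 24.7% of the 13657 genes called were higher. In 35S GPT2 none passed without the block (median 0.24) and 4 rose with it. Of all 18364 genes, 617 were called higher in 35S GPT2 with the block, against 258 without it.

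Of 28 relatives of the 5 genes, 16 passed the filter on low counts in the first trial and 17 in the second. CYP98A8 and CYP98A9, the other CYP98A genes, held at most 14 and 4 counts in any library and were not tested, and the spermidine acyltransferases SDT, SCT and SHT, relatives of HCT, held at most 16. Opposite-strand exons cover 94.7% of the exon bases of CYP98A8, 64.3% of those of CYP98A9 and 33.2% of those of SHT. Their counts in Col-0 set 1 and the libraries labelled gpt2-1 may therefore be too low. Of the CCoA methyltransferase family, TSM1 was not tested, CCOAMT fell in HCT-RNAi (-0.60) and rose in the libraries labelled gpt2-1 (1.44). OMTF3 rose in the libraries labelled gpt2-1 (0.72) and fell in 35S GPT2 (-0.83). DCF, an acyltransferase of cutin, fell in HCT-RNAi (-1.02, SE 0.07) and in the libraries labelled gpt2-1 (-0.70, SE 0.07). FACT and ASFT, acyltransferases of suberin and its waxes, fell in 35S GPT2, where they held 0 to 2 and 5 to 47 counts, against 50 to 160 and 65 to 493 counts in Col-0 set 2. Of 16 relatives tested in the first trial, 3 were called higher and 6 lower in HCT-RNAi, and 8 higher and 5 lower in the libraries labelled gpt2-1. Among the 13 of these with no exon base under opposite-strand exons, 1 was higher and 6 lower in HCT-RNAi, and 8 higher and 4 lower in the libraries labelled gpt2-1. In 35S GPT2 4 of 17 fell and none rose. The shares of all genes called higher and lower were 29.2% and 26.5% in HCT-RNAi. They were 27.4% and 25.8% in the libraries labelled gpt2-1, and 1.40% and 1.11% in 35S GPT2. AT2G39420, of the esterase family of CSE, rose in the libraries labelled gpt2-1 (1.60).

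Regulators and partners of the thickening wall were given beside the 5 genes for each line. Over all genes, 25.8% were called lower and 27.4% higher in the libraries labelled gpt2-1. The shares were 26.5% lower and 29.2% higher in HCT-RNAi, and 1.11% lower and 1.40% higher in 35S GPT2. In 35S GPT2, 617 of 18364 genes were called higher with the block and 202 without TMM. Of 18 lignin and wall regulators, 14 fell and none rose in the libraries labelled gpt2-1, with MYB61 (-2.32, SE 0.15) and MYB4 (-1.49), a repressor, the lowest, and a median of -0.28. In 35S GPT2 7 rose, MYB61 (1.53, SE 0.25), SND2 (0.98) and NST3 (0.91) among them, with a median of 0.90, while 11 rose with the block and 4 without TMM. In HCT-RNAi 10 fell and 6 were called higher, one of them MYB58, all of whose exon bases lie under opposite-strand exons, and the median was -0.17. Of 12 genes of secondary wall polysaccharides, 11 fell in the libraries labelled gpt2-1 (median -0.43, FRA8 -0.93, IRX9 -0.73). In 35S GPT2 9 rose (median 0.95, ESK1 1.20, IRX9 1.18), and 12 with the block. In HCT-RNAi 6 fell and 3 rose (median -0.12), and of the 6 without opposite-strand bases 1 fell and 3 rose.

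**Figure D4:**
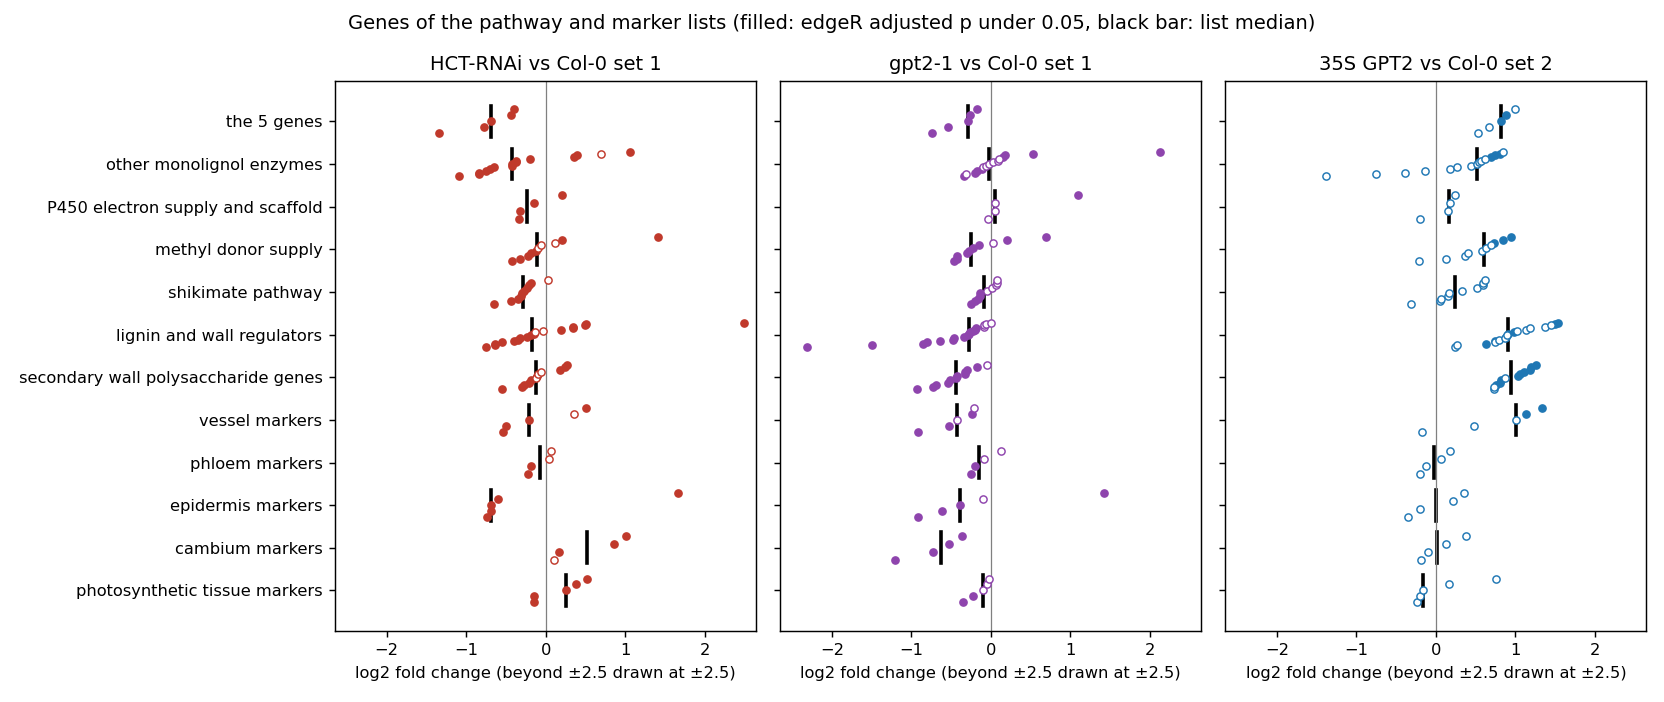
log2 fold changes of the 5 genes and of the pathway and marker lists, one point per gene tested, with filled points for an edgeR adjusted p under 0.05 and black bars for list medians. The point at the right edge in HCT-RNAi is MYB58, drawn at the limit of the axis; it was at 0 in Col-0 set 1, so its fitted value depends on the prior count. The median of the 5 genes is -0.69 in HCT-RNAi, -0.29 in gpt2-1 and 0.82 in 35S GPT2.

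Stems hold several tissues, and in bulk samples fewer cells of a type and less RNA per cell cannot be told apart. Marker counts stand beside shares of all genes called of 26.5% lower and 29.2% higher in HCT-RNAi. Those shares were 25.8% and 27.4% in the libraries labelled gpt2-1, and 1.11% and 1.40% in 35S GPT2. Without TMM 13657 of 20053 genes were called in the libraries labelled gpt2-1, and 24.7% of these were higher. In 35S GPT2, 202 of 18364 genes were called higher without TMM and 617 with the block. Vessels lignify with the fibres. Their 5 markers summed to 177 to 209 CPM in the libraries labelled gpt2-1, against 280.0 to 301 CPM in Col-0 set 1, and 3 of 5 fell with TMM and 5 without it. In 35S GPT2 they summed to 500.3 to 601 CPM, against 252 to 316 CPM in Col-0 set 2, and 2 of 5 rose, 1 without TMM and 3 with the block. In HCT-RNAi the sums of 275 to 285 CPM overlapped those of Col-0 set 1, with 3 of 5 lower and 1 higher.
Cambium markers summed to 243 to 270.3 CPM in HCT-RNAi and 134 to 153 CPM in the libraries labelled gpt2-1, against 207 to 215 CPM in Col-0 set 1. Of the 4, 3 rose in HCT-RNAi, WOX4 (1.01) the most, and all 4 fell in the libraries labelled gpt2-1, WOX4 (-1.20) the most. Epidermis markers summed to 938 to 947 CPM in HCT-RNAi and 846 to 945 CPM in the libraries labelled gpt2-1, against 1457 to 1504 CPM in Col-0 set 1, with 4 and 3 of 5 lower and 1 higher in each.
Phloem markers summed to 564 to 598 CPM in HCT-RNAi and 575 to 599.9 CPM in the libraries labelled gpt2-1, against 633 to 669.6 CPM in Col-0 set 1, and 2 of 4 fell in each. Markers of photosynthetic tissue summed to 6580 to 6700.4 CPM in HCT-RNAi and 5206 to 5457 CPM in the libraries labelled gpt2-1, against 5573 to 6303 CPM in Col-0 set 1. Of these 5 markers, 3 were called higher and 2 lower in HCT-RNAi. Among the 4 without opposite-strand bases, 2 were higher and 2 lower there. For the libraries labelled gpt2-1, 2 of 5 were called lower and none higher. None of the phloem, epidermis, cambium or photosynthetic markers tested in 35S GPT2 passed by edgeR without the block. Of the 5 epidermis markers, only 4 passed the filter on low counts and were tested there. No marker was at 0 in a whole group, and the part of these tissues in the results for the 5 genes was not tested.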

How the data were processed

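RNA sequencing libraries of stem RNA were deposited by the authors as 1 table of gene counts for each of 15 samples. STAR, DESeq2 and TAIR10 are named, without roles, per the submitters' processing notes, while for the counting step the tool, strand setting and annotation remain not given in the sources used here. From the raw counts as deposited, with 5 tables re-paired with their gene labels, edgeR 4.0.16 (R 4.3.3, limma 3.58.1) was run with its filter on low counts, TMM factors and the quasi-likelihood test, with Benjamini-Hochberg adjustment over all genes tested and a threshold of 0.05. The 9 samples of the first trial and the 6 of the second were fitted separately, and 1 fit of all 15 gave the difference between effects. The steps were tested on simulated data. The 219 rows without a gene name, with 0.000322% to 0.00117% of counts per table, were left out. AT1G64190 was also left out of every fit that held samples of the second trial. The GPT2 counts deposited for Col-0 set 2 (34, 29 and 25) equal those of Col-0 set 1 and fall on AT1G64190 after re-pairing. Why they are equal was not tested. Rows of replicates in a group differed by more than sampling noise, with chi-square over degrees of freedom of 1.95 to 5.34 in the first trial and 10.2 to 33.4 in the second.

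Sequences and coordinates are from RefSeq's TAIR10.1, read with Python 3.11.15, and coding sequences were aligned with biopython 1.88. No measured value entered the rule for the 5 genes, but they and the lists were chosen with earlier results of these data known. Named were the 5 genes, GPT2, up to 3 genes per list and comparison with the smallest p that passed, close relatives of the 5 genes, and the 3 genes nearest to each in profile, of which 1 is not reported here. Same-numbered samples of the second trial deviated together over genes, with correlations of 0.103, 0.282 and 0.142, all over 0.1, so the number was used as a replicate block beside the unblocked result. The labels give no such pairing, and the block rests on the same counts that it was then used to test. In the first trial these correlations were -0.05 to 0.01 and the numbers did not pair samples. Alternatives tried were DESeq2 1.42.0, other scalings, no filter, only the groups compared, genes without opposite-strand overlap, labels as deposited, the block and leaving out samples.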

Additional observations from a re-analysis of the deposited data

Results flagged for a closer look

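For each of the 5 genes the effect of 35S GPT2 against its wild type and that of the libraries labelled gpt2-1 against theirs differed by a test of the difference itself, with opposite signs of the fold changes. Against Col-0 set 2 alone and without the block, the positive fold changes of HCT, CSE and CCOAOMT7 did not pass (edgeR adjusted p = 0.211, 0.0868 and 0.0522). The difference, 35S GPT2 minus gpt2-1, on the log2 scale was 0.64 for HCT, 1.37 for C3H1, 0.87 for CSE, 1.06 for CCOAOMT1 and 1.66 for CCOAOMT7 (edgeR adjusted p = 0.00825 for HCT, the highest of the 5). These adjusted p-values may be too small, because the fit shares 1 estimate of spread between trials of unlike spread. Each line was also in 1 trial only, so a response that differs between trials cannot be told apart from the line. In both lines GPT2 itself was above its wild type set, at log2 fold changes of 7.05 in 35S GPT2 and 6.59 in the libraries labelled gpt2-1.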

How the results depend on the processing

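In HCT-RNAi and in the libraries labelled gpt2-1, each against Col-0 set 1, the 5 genes kept direction and call in every alternative run. Leaving out 1 sample gave log2 fold changes of -1.39 to -1.29 for HCT, -0.75 to -0.62 for C3H1, -0.81 to -0.71 for CSE, -0.46 to -0.39 for CCOAOMT1 and -0.46 to -0.34 for CCOAOMT7 in HCT-RNAi. Among genes without opposite-strand overlap 7392 were called in HCT-RNAi, against 11167 among all genes, with fewer genes tested. The calls in 35S GPT2 depended on the settings. With the replicate block HCT (0.51), CSE (0.66) and CCOAOMT7 (1.04) were called, as they were by DESeq2 (0.52, 0.66 and 1.00), and 1103 and 947 genes were called, against 462. The block changed no other call among the 5 genes. CSE also passed without TMM (0.63), and CCOAOMT7 passed without the filter (0.98) and among genes without overlap (1.00). CCOAOMT1 lost its call with RLE factors (0.82), without the filter (0.81) and with labels as deposited (7.52), where 0 genes were called. Leaving out 1 sample gave 0.41 to 0.65 for HCT, 0.78 to 0.99 for C3H1, 0.52 to 0.76 for CSE, 0.69 to 0.93 for CCOAOMT1, 0.77 to 1.26 for CCOAOMT7 and 110 to 674 genes called, the fewest without 35S GPT2 replicate 1. Without both 35S GPT2 replicate 2 and Col-0 set 2 replicate 1, left out together after seeing the data, the values were 0.49 for HCT, 1.04 for C3H1, 0.79 for CSE, 0.97 for CCOAOMT1 and 0.78 for CCOAOMT7, of which all but HCT passed, with 1071 genes called. Between HCT-RNAi and the libraries labelled gpt2-1, C3H1 (0.067) and CCOAOMT1 (0.069) changed sign without TMM, where the median of all genes moved to 0.25 and the higher share of calls to 71.85%, against 51.8% with TMM. CCOAOMT1 did not pass among genes without overlap (-0.11). Leaving out 1 sample there gave -0.17 to -0.11 for C3H1 and -0.18 to -0.10 for CCOAOMT1. C3H1 lost its call without HCT-RNAi replicate 2 or gpt2-1 replicate 2, and CCOAOMT1 without HCT-RNAi replicate 3. For the difference between effects, labels as deposited gave 11.54 for HCT, 15.10 for C3H1, 11.58 for CSE, 7.79 for CCOAOMT1 and 5.08 for CCOAOMT7, none past the threshold, and 0 genes called. Without TMM 66.7% of its calls were higher, against 41.8% with TMM. The cause of these shifts was not tested. The fewest counts behind any value of the 5 genes were the 154 of CCOAOMT7 in Col-0 set 2 replicate 1.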
